A study of Mus musculus with 6 samples.

Results

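Synaptic vesicle release and synapse adhesion genes were examined as a set of 42 named genes, chosen as SNARE, synaptotagmin, vesicle, active zone and synapse adhesion genes with a row in each count file. All 42 were found among the 23284 genes of the files, and each had at least 1 read in every library. RNA came from preSC cells, a mouse cell line labelled as a precursor of SCLC, which is small cell lung cancer. The sources used here do not state its genotype. The shCrebbp group comprised 3 libraries, each of cells with a different pLKO.1 short hairpin against Crebbp (hairpins 1, 2 and 5), and the control group comprised 3 libraries of cells with a pLKO.1 vector, of which controls 1 and 2 carried the empty vector (shEmpty) and control 3 a non-silencing hairpin (shNS). All 6 libraries were thus of 1 transduced line, with 1 library per Crebbp hairpin, so hairpin and library cannot be told apart. No separate cultures are named, so p-values measure only the spread between these libraries, which may be technical.

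Regulated secretion joins a vesicle to the plasma membrane by SNARE proteins. VAMP on the vesicle zips together with syntaxin and SNAP25 on the target membrane, synaptotagmins sense calcium, complexins and Munc13 proteins set the readiness to fuse, and active zone scaffolds hold vesicles at release sites. Neuroendocrine cells, including those of the lung from which SCLC can arise, use the same proteins to release dense-core granules, and synaptophysin is a routine stain for neuroendocrine tumours. Neurexins and neuroligins are partner adhesion proteins on the 2 sides of a synapse, and neuroendocrine cells also express some of them.

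CREB-binding protein, the acetyltransferase that Crebbp encodes, is a coactivator of the transcription factor CREB, which binds the cAMP response element (CRE). The start sites of the members were therefore searched for the CRE (TGACGTCA) and its core letters (TGACG) and for the 2 parts of the RE1 element bound by the neuronal-gene repressor REST (TTCAGCACC and a longer second part), on both strands. A RefSeq window of 300 bases (250 before and 50 after a start site, build GRCm38.p6) was held for 30 of the 42 members, with 42 windows in all. The full CRE was found in the Syn1 window alone among members, against 1.79% of all 32851 windows. TGACG, which the CRE contains, was found in windows of 6 members (Cplx1, Dlg4, Nlgn2, Stx1a, Syn1 and Unc13a) and in 20.8% of all windows. TTCAGCACC was found for Nlgn1, Syn1 and Unc13a (0.371% of all windows), and the second RE1 part for Unc13a (0.137%). The windows of Syn1, which holds both the CRE and the first RE1 part, of Unc13a, which holds both RE1 parts on the strand opposite to the gene with 8 bases between them, and of Cplx1, which holds TGACG on each strand, are shown 5′ to 3′ with these letters, or their reverse complement, in capitals. A match is a description of the letters and not a site.
Syn1 promoter (GRCm38.p6, chrX:20920869-20921168, minus strand): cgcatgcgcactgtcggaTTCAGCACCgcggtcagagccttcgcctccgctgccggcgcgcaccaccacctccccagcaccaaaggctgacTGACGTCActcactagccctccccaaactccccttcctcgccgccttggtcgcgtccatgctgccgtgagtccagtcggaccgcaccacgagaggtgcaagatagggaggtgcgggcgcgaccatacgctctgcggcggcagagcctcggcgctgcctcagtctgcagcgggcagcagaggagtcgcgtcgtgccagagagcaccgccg
Unc13a promoter (GRCm38.p6, chr8:71671708-71672007, minus strand): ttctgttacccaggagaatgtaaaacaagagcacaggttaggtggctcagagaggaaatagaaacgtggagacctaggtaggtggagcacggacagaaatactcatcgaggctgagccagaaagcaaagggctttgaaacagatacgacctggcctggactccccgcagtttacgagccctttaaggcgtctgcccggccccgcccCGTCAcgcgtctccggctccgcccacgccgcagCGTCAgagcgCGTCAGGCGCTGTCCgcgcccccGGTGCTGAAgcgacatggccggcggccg
Cplx1 promoter (GRCm38.p6, chr5:108549978-108550277, minus strand): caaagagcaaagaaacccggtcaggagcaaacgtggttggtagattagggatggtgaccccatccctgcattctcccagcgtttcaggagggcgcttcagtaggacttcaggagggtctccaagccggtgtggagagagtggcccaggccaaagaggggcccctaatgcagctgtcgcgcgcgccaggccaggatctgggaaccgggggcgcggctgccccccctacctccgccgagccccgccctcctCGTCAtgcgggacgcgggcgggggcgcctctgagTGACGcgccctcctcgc

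The shCrebbp libraries held 13622020 to 14651158 gene reads and the control libraries 13687770 to 19804949, so 1 count per 1000000 gene reads (CPM, normalised) stood for 13.6 to 19.8 reads. The targeted gene, Crebbp, stood at 46.2, 58.3 and 48.9 CPM with hairpins 1, 2 and 5, against 66.2, 69.6 and 69.4 CPM in controls 1, 2 and 3 (log2 fold change -0.42 ± 0.10, edgeR adjusted p = 0.0999, DESeq2 adjusted p = 0.0163). All 10 neuroendocrine markers averaged above 1 CPM in controls. Of 6 endothelial markers 5 and of 6 macrophage markers 4 stayed under 1 CPM in every library. The same held for 4 of 6 fibroblast markers (Col3a1 had no read), although the proteoglycan gene Dcn stood at 11.2 to 61.7 CPM with the hairpins and 35.5 to 43.4 CPM in controls. The 9 neuron markers with a row summed to 198 to 317 CPM with the hairpins and 161 to 220.1 CPM in controls, and 1 of them, the neuronal splicing factor gene Rbfox3, stood at 24.4 CPM with hairpin 2 and at 0.715 to 3.94 CPM in the other 5 libraries. Another, the neuronal tubulin gene Tubb3, had 205, 169.9 and 105 CPM with hairpins 1, 2 and 5, against 87.1, 108 and 129.7 CPM in controls 1, 2 and 3. Nefh and Nefm, genes of neurofilament subunits, had every hairpin library above every control. Nefh had 86.0, 107 and 85.1 CPM with hairpins 1, 2 and 5, against 68.7, 74.9 and 80.2 CPM in controls 1, 2 and 3 (edgeR adjusted p = 0.224). Nefm, not tested for its few reads, had 1.25, 4.92 and 0.681 CPM with hairpins 1, 2 and 5, against 0.460, 0.183 and 0.511 CPM in controls 1, 2 and 3. The remaining neuron markers with a row, Nefl, Camk2a, Gad1, Gad2 and Slc17a7, overlapped between groups, as did Rbfox3 and Tubb3. Hairpin means were higher for Nefl, Camk2a and Gad1. They were lower for Gad2 (0.752 CPM, against 0.894 CPM in controls) and Slc17a7 (0.446 CPM, against 0.478 CPM in controls). The 6 glia markers summed to 122 to 171 CPM with the hairpins and 141 to 172 CPM in controls, nearly all of it Mbp, while Gfap had no read and Aqp4 had every hairpin library under every control (edgeR adjusted p = 0.205). The part of these neuron and glia markers in the results on synaptic genes was not tested. In bulk RNA, fewer cells of a type and less RNA per cell cannot be told apart.

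The release machinery was well expressed, with 1 dominant paralogue in most families. Levels between genes were compared as reads per kilobase of the longest annotated transcript per 1000000 reads (RPKM). In controls 34 of the 42 members reached 1 RPKM and 24 reached 10 RPKM. Cplx2, a complexin that both clamps and promotes SNARE-driven fusion, was highest, at 219 ± 43.0 RPKM with the hairpins and 278 ± 15.1 RPKM in controls (SD, n = 3 libraries each, as for all levels and shares given with ±, while fold changes carry their standard error). Vamp2, the vesicle SNARE, followed at 125 ± 16.9 RPKM with the hairpins and 133 ± 1.57 RPKM in controls. Syp (synaptophysin) was next at 64.4 ± 11.0 and 67.2 ± 0.516 RPKM with the hairpins and in controls. These 3 and Cadps2 at 61.8 ± 10.9 RPKM in controls headed the order there, and the control libraries of Syp and Cadps2 overlapped. At the foot of the control order stood Sez6l (0.201 ± 0.044 RPKM), Dlg2 (0.0635 ± 0.00799 RPKM) and Sv2c (0.034 ± 0.014 RPKM). Control libraries of neighbours overlapped in 22 of the 41 adjacent pairs of this order, so close ranks are not resolved.

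**Figure D1:**
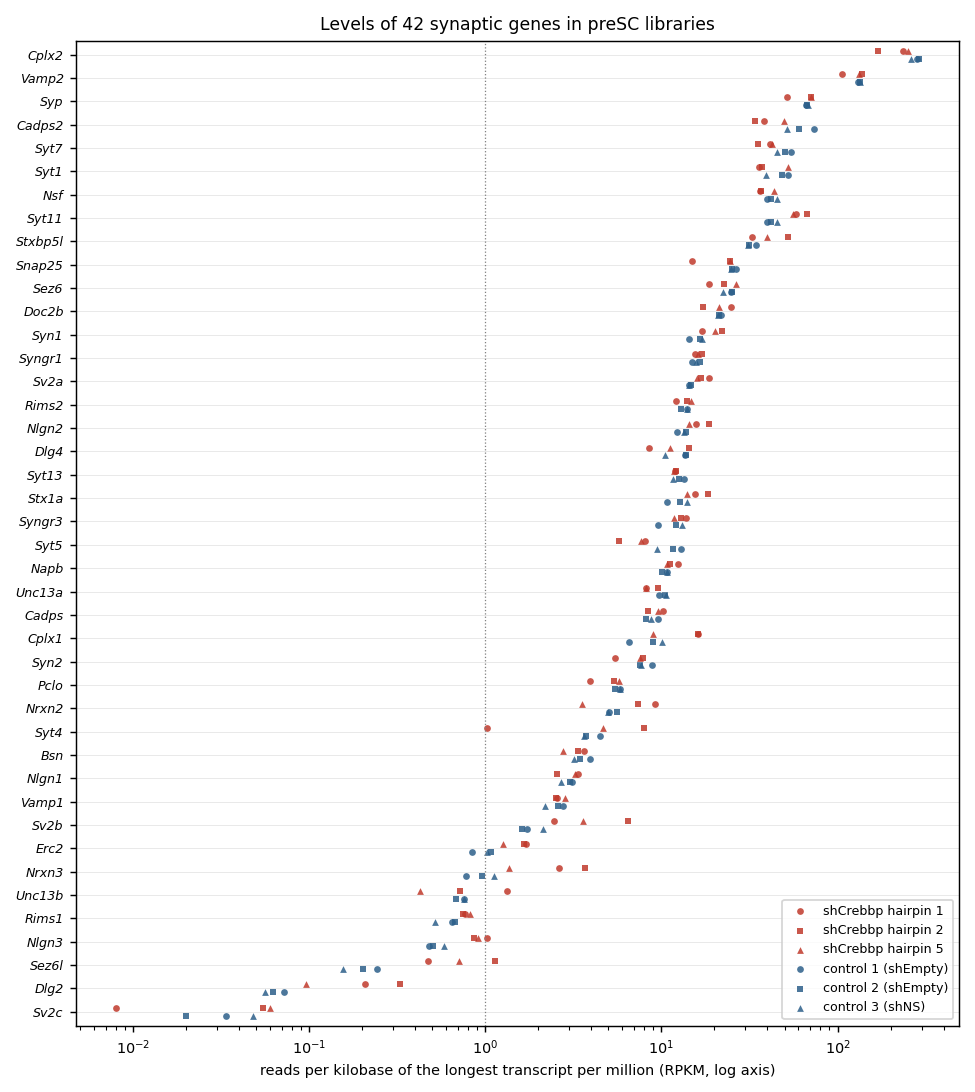
Level of each of the 42 genes in each library as RPKM on a log axis, ordered by the control mean, with the 3 shCrebbp libraries in red just above the 3 control libraries in blue. The dotted line marks 1 RPKM. Every red point lies to the right of the blue ones for Syt11, Sv2a, Sv2b, Rims1, Erc2, Nrxn3, Nlgn2, Nlgn3, Sez6l and Dlg2. Every red point lies to the left for Snap25, Syt5, Syt7, Cplx2, Unc13a and Cadps2. The gaps are small for most of those above 10 RPKM.

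Set against controls, no member was called in either direction. The edgeR quasi-likelihood test was run on all 13390 genes that passed a filter on low counts, with a threshold of 0.05 on the adjusted p. Of the 42 members 41 passed the filter, 0 were called higher (0.276% of all tested genes were) and 0 lower (0.978% of all tested genes). At an unadjusted p under 0.05 there were 18 members (16.5% of all tested genes), 13 of them higher (7.99%) and 5 lower (8.46%). DESeq2 called 5 higher (2.22% of all tested genes), namely Syt11, Sez6l, Nlgn3, Nrxn3 and Sv2b, and 2 lower (3.23%), Syt5 and Cadps2, whereas limma-voom called 0 in either direction (0.232% of all tested genes higher and 0.956% lower). All 3 hairpin libraries lay above all 3 controls in 10 tested members (11.4% of all tested genes) and below them in 6 (11%). Dlg2, counted among these 10 and among the 13, passed the filter through its hairpin libraries alone. The median log2 fold change, shCrebbp over control, was 0.07 over the tested members and 0.01 over all tested genes. In edgeR without hairpin 1 the calls were Sez6l, Sv2b and Syt11, all higher (0.967% of all tested genes), and without hairpin 5 they were Dlg2, Nrxn2, Nrxn3 and Syt11, all higher (1.05%).

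**Figure D2:**
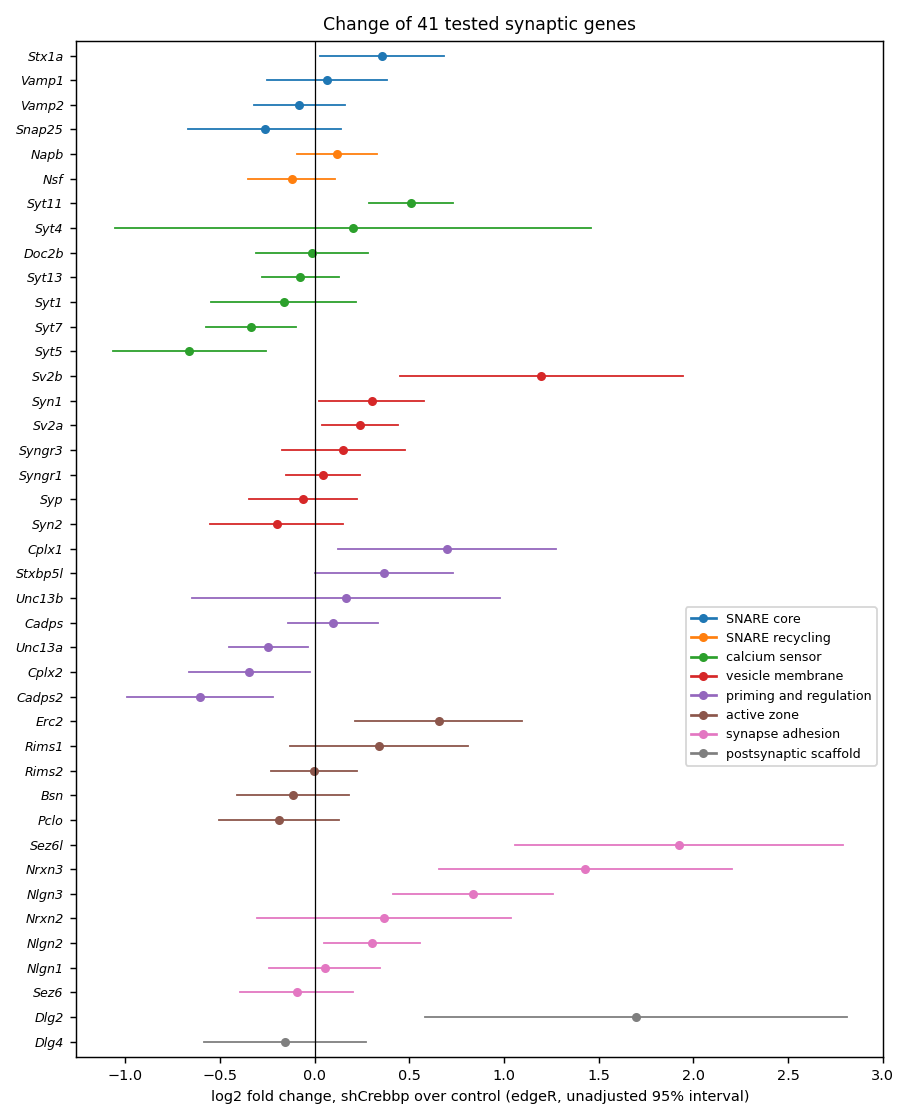
Log2 fold change (shCrebbp over control) of the 41 tested genes with its unadjusted 95% interval, coloured and grouped by role. The adhesion genes Sez6l, Nrxn3 and Nlgn3, the scaffold gene Dlg2 and the vesicle gene Sv2b have intervals wholly above 0.4, while the estimates of the SNARE genes lie within 0.4 of 0.

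Among the core SNAREs, Snap25, the plasma membrane SNARE cut by botulinum toxin A, stood at 72.4, 119 and 119.6 CPM with hairpins 1, 2 and 5, against 129.5, 123 and 121 CPM in controls 1, 2 and 3. The groups did not overlap, but hairpins 2 and 5 lay just under the lowest control, and the log2 fold change of -0.26 ± 0.18 (SE) did not pass (edgeR adjusted p = 0.516, 95% interval -0.67 to 0.14). Vamp2 stood at 234, 304 and 292 CPM with hairpins 1, 2 and 5, against 289, 295 and 294 CPM in controls 1, 2 and 3, so that hairpin 1 was low and the other 2 lay around the controls (log2 fold change -0.08 ± 0.11). Stx1a, the syntaxin partner of Snap25, had 33.7, 39.9 and 30.2 CPM with hairpins 1, 2 and 5, against 23.2, 27.6 and 30.4 CPM in controls 1, 2 and 3. Hairpin 5 overlapped the controls there, and the log2 fold change of 0.35 ± 0.14 did not pass (adjusted p = 0.268). Vamp1, the minor vesicle SNARE, averaged 15.04 ± 1.06 CPM with the hairpins and 14.3 ± 1.63 CPM in controls. The recycling genes Nsf, the ATPase that pulls spent SNARE complexes apart, and Napb, its beta-SNAP adaptor, had log2 fold changes of -0.12 ± 0.10 and 0.12 ± 0.09.

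Of the 7 synaptotagmin and Doc2 genes 2 had positive and 5 negative fold changes, none called by edgeR. The figures label this group calcium sensor, although not all of its proteins sense calcium. Syt11, an atypical synaptotagmin that does not sense calcium in the usual way, had the smallest p of all members, with 290.2, 336 and 281 CPM with hairpins 1, 2 and 5, against 199, 211 and 229 CPM in controls 1, 2 and 3. Every hairpin library lay above every control, and the log2 fold change of 0.51 ± 0.10 (95% interval 0.28 to 0.73) missed the threshold (edgeR adjusted p = 0.0534, DESeq2 adjusted p = 0.000299). With 1 library left out its edgeR adjusted p ran from 0.0442 to 0.305. Syt5 and Syt7 lay on the other side. Syt5 had 14.2, 10.1 and 13.5 CPM with hairpins 1, 2 and 5, against 22.6, 20.5 and 16.6 CPM in controls 1, 2 and 3 (log2 fold change -0.66 ± 0.18, edgeR adjusted p = 0.115, DESeq2 adjusted p = 0.0270). For Syt7, the slow high-affinity calcium sensor, the hairpin libraries at 274, 233 and 283 CPM all lay under the controls at 361, 335 and 302 CPM (log2 fold change -0.34 ± 0.10, adjusted p = 0.166).

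Syt1, the fast sensor, overlapped between groups, at 173, 179 and 254 CPM with hairpins 1, 2 and 5, against 253, 235 and 190.2 CPM in controls 1, 2 and 3 (adjusted p = 0.697). Syt4, a relative of Syt11, varied most of all members between hairpins, at 3.97, 31.0 and 18.2 CPM with hairpins 1, 2 and 5, against 17.4, 14.5 and 14.2 CPM in controls 1, 2 and 3. Hairpin 1 was the lowest and hairpin 2 the highest of the 6 libraries, and the fitted log2 fold change of 0.20 (-0.22 in limma-voom) had a 95% interval of -1.05 to 1.46. Syt13, which lacks calcium binding, and Doc2b, a sensor linked to spontaneous release, had log2 fold changes of -0.07 ± 0.09 and -0.01 ± 0.13. Per length, Syt11 made up 37.0%, 40.6% and 31.9% of the RPKM of the 6 synaptotagmin members with hairpins 1, 2 and 5, against 22.3%, 24.8% and 29.4% in controls 1, 2 and 3. Syt7 made up 24.0% ± 2.61 with the hairpins and 30.0% ± 0.706 in controls. With the median in place of the longest transcript length, these means became 24.0% with the hairpins and 15.1% in controls for Syt11, and 46.2% and 52.2% for Syt7, so the direction was the same but the order of the 2 genes depended on the length used.

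Of 7 tested vesicle membrane genes 5 had positive and 2 negative fold changes, none called by edgeR. Syp stood at 147, 201 and 202 CPM with hairpins 1, 2 and 5, against 189, 192 and 192 CPM in controls 1, 2 and 3, and hairpin 1 alone lay under them (log2 fold change -0.06 ± 0.12, 95% interval -0.35 to 0.22). The synaptogyrin genes Syngr1 and Syngr3, which encode relatives of synaptophysin, had log2 fold changes of 0.04 ± 0.08 and 0.15 ± 0.14. The synapsins, which tether vesicles in reserve, differed in sign. Syn1, whose start window holds the CRE, had 55.1, 71.7 and 65.9 CPM with hairpins 1, 2 and 5, against 46.7, 54.3 and 55.5 CPM in controls 1, 2 and 3. Hairpin 1 overlapped the controls there (log2 fold change 0.30 ± 0.12, adjusted p = 0.267). The fold change of Syn2 was negative (-0.20 ± 0.15 on the log2 scale, adjusted p = 0.580). As a share of synapsin RPKM, Syn1 took 75.5%, 73.5% and 72.7% with hairpins 1, 2 and 5, against 61.7%, 68.7% and 69.0% in controls 1, 2 and 3, without overlap.

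Among the SV2 glycoproteins, which are vesicle proteins and toxin receptors, the minor Sv2b differed most. Sv2b had 13.5, 35.8 and 19.9 CPM with hairpins 1, 2 and 5, against 9.50, 8.90 and 11.8 CPM in controls 1, 2 and 3. The groups did not overlap, hairpin 2 was the highest, and the log2 fold change was 1.20 ± 0.33 (edgeR adjusted p = 0.122, DESeq2 adjusted p = 0.00858). The main isoform gene Sv2a, whose protein is the target of levetiracetam, averaged 74.2 ± 6.02 CPM with the hairpins and 62.8 ± 0.953 CPM in controls, also without overlap (log2 fold change 0.24 ± 0.09, adjusted p = 0.226). Sv2c, the 1 member that failed the filter, had 1, 7 and 8 reads with hairpins 1, 2 and 5 and 6, 3 and 6 reads in controls 1, 2 and 3, and was not tested.

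**Figure D3:**
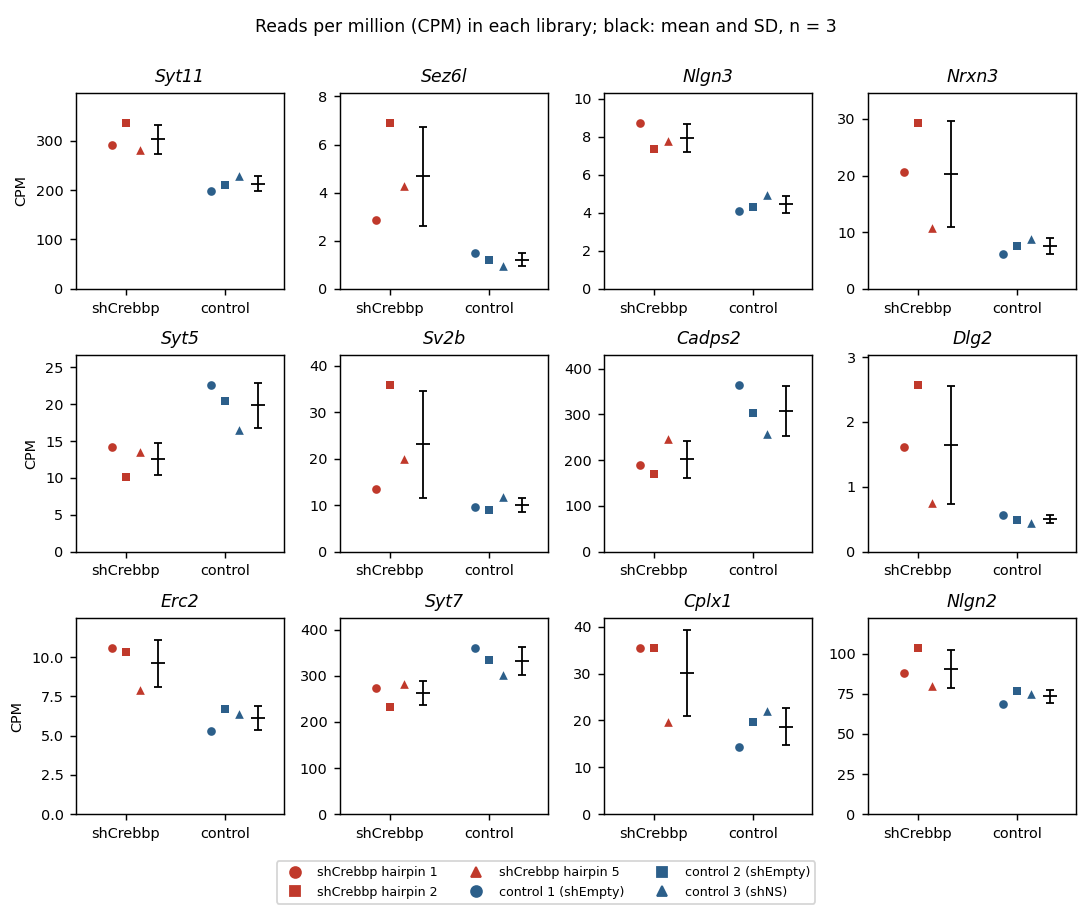
CPM in each library for the 12 members of smallest p, with shCrebbp in red on the left and control in blue on the right of each panel, axes from 0, and the mean and SD (n = 3) in black. Hairpin 2 (square) is the highest shCrebbp library for Syt11, Sez6l, Nrxn3, Sv2b and Dlg2, and the groups overlap in Cplx1 alone of these 12.

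Of the 7 genes of priming and fusion control 4 had positive and 3 negative fold changes, none called by edgeR. Cplx2 had 1154, 839.5 and 1242 CPM with hairpins 1, 2 and 5, against 1389, 1434 and 1289 CPM in controls 1, 2 and 3. All hairpin libraries lay under the controls (log2 fold change -0.35 ± 0.14, adjusted p = 0.269, 95% interval -0.67 to -0.03). Its minor paralogue Cplx1 stood at 35.5, 35.5 and 19.6 CPM with hairpins 1, 2 and 5, against 14.3, 19.6 and 22.0 CPM in controls 1, 2 and 3. Hairpins 1 and 2 lay above every control and hairpin 5 among them (log2 fold change 0.70 ± 0.25, adjusted p = 0.215). Of the 6 genes with TGACG in a window, Cplx1, Nlgn2, Stx1a and Syn1 had positive and Unc13a and Dlg4 negative fold changes, none of them called by edgeR or DESeq2. Cplx1 made up 6.20% ± 2.64 of complexin RPKM with the hairpins and 2.98% ± 0.715 in controls.

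Cadps2, which encodes the CAPS2 priming factor of dense-core granules, had 189.7, 169 and 247 CPM with hairpins 1, 2 and 5, against 364, 302 and 256 CPM in controls 1, 2 and 3. Every hairpin library was under every control, though hairpin 5 and control 3 lay close (log2 fold change -0.61 ± 0.17, edgeR adjusted p = 0.126, DESeq2 adjusted p = 0.0139). Its relative Cadps averaged 74.1 ± 7.24 CPM with the hairpins and 69.2 ± 5.54 CPM in controls. Unc13a, the main Munc13 priming gene, whose window holds both RE1 parts, averaged 88.7 ± 7.76 CPM with the hairpins and 105 ± 4.84 CPM in controls, without overlap (log2 fold change -0.24 ± 0.09, adjusted p = 0.230). Unc13b spread from 19.7 CPM with hairpin 1 to 6.26 CPM with hairpin 5, around 10.1 to 11.2 CPM in controls. Stxbp5l, which encodes tomosyn-2, an inhibitor of SNARE assembly, had 144, 229.7 and 175 CPM with hairpins 1, 2 and 5, against 152, 137 and 136 CPM in controls 1, 2 and 3 (log2 fold change 0.37 ± 0.16, adjusted p = 0.301).

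Of the 5 active zone genes 2 had positive and 3 negative fold changes, none called by edgeR. Erc2, which encodes the scaffold CAST, stood at 10.6, 10.3 and 7.89 CPM with hairpins 1, 2 and 5, against 5.26, 6.71 and 6.35 CPM in controls 1, 2 and 3, without overlap (log2 fold change 0.65 ± 0.19, adjusted p = 0.144). Rims1, the minor RIM scaffold gene here, also had its hairpin libraries above the controls (5.03 ± 0.248 and 3.96 ± 0.525 CPM with the hairpins and in controls, adjusted p = 0.466). The main RIM gene Rims2 averaged 65.2 ± 6.64 CPM with the hairpins and 65.5 ± 2.90 CPM in controls, with a 95% interval of -0.23 to 0.22 on the log2 scale. The giant scaffold genes Bsn and Pclo had log2 fold changes of -0.11 ± 0.13 and -0.19 ± 0.14, and Pclo stood at 78.6 CPM with hairpin 1 against 109 to 118 CPM in the other 5 libraries.

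Synapse adhesion genes had positive fold changes in 6 of 7 members (53.2% of all tested genes were positive), of which 4 had an unadjusted p under 0.05 (7.99% of all tested genes were higher at that p) and none was called by edgeR, and those of largest size were the least abundant. Sez6l, a transmembrane relative of SEZ6, had 2.87, 6.91 and 4.29 CPM with hairpins 1, 2 and 5 (39, 97 and 63 reads), against 1.48, 1.22 and 0.949 CPM in controls 1, 2 and 3 (29, 20 and 13 reads). The groups did not overlap, and the log2 fold change was 1.93 ± 0.38 (edgeR adjusted p = 0.0565, DESeq2 adjusted p = 0.000965). Nrxn3, a neurexin gene, had 20.7, 29.3 and 10.8 CPM with hairpins 1, 2 and 5, against 6.13, 7.62 and 8.90 CPM in controls 1, 2 and 3. Hairpin 5 lay near the highest control there (log2 fold change 1.43 ± 0.34, edgeR adjusted p = 0.0915, DESeq2 adjusted p = 0.00142).

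Nlgn3, a neuroligin gene linked to autism in people, had 8.75, 7.34 and 7.76 CPM with hairpins 1, 2 and 5, against 4.09, 4.33 and 4.96 CPM in controls 1, 2 and 3. The hairpins were alike here and well apart from the controls (log2 fold change 0.84 ± 0.18, edgeR adjusted p = 0.0788, DESeq2 adjusted p = 0.0118). In the GRCm38 annotation 41.2% of Nlgn3 exon bases also lie in exons of Gm21986, a transcript of the same strand with no row in the files, so reads of the 2 cannot be told apart. Nlgn2, the neuroligin of inhibitory synapses, stood at 88.0, 104 and 80.2 CPM with hairpins 1, 2 and 5, against 68.7, 76.7 and 74.9 CPM in controls 1, 2 and 3 (log2 fold change 0.30 ± 0.11, adjusted p = 0.222). Nlgn1 averaged 36.1 ± 5.22 CPM with the hairpins and 34.8 ± 2.61 CPM in controls.

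The main neurexin member, Nrxn2, split by hairpin, at 61.7, 49.4 and 23.5 CPM with hairpins 1, 2 and 5, against 33.5, 37.5 and 33.4 CPM in controls 1, 2 and 3. Hairpins 1 and 2 were above all controls and hairpin 5 below them (log2 fold change 0.37 ± 0.29, adjusted p = 0.6003). Sez6, a surface protein gene whose product has been used as an antibody target in SCLC, averaged 102 ± 18.1 CPM with the hairpins and 109 ± 6.55 CPM in controls (log2 fold change -0.10 ± 0.13). Of the postsynaptic scaffolds, Dlg4 (PSD-95) averaged 71.7 ± 18.3 CPM with the hairpins and 79.9 ± 11.5 CPM in controls. Dlg2 (PSD-93) had 22, 36 and 11 reads with hairpins 1, 2 and 5, against 11, 8 and 6 reads in controls 1, 2 and 3. The means were 1.64 ± 0.908 and 0.496 ± 0.0624 CPM with the hairpins and in controls (log2 fold change 1.70 ± 0.48, adjusted p = 0.138). Dlg2 passed the low-count filter through the hairpin libraries alone, so its place among the higher members is partly set by the filter. With a filter of 1 CPM in 3 libraries it was not tested, which left 40 tested members.

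The share of the less abundant paralogue was higher with every hairpin than in every control in several families and lower in the synapsins. Outside the synaptotagmins, the main paralogue held most of the RPKM in every library. Among the synaptotagmins, the Syt5 share was lower with every hairpin than in every control (4.36% ± 0.845 with the hairpins and 6.76% ± 0.607 in controls). Sez6l made up 2.49%, 4.81% and 2.60% of the Sez6 and Sez6l RPKM with hairpins 1, 2 and 5, against 0.977%, 0.796% and 0.693% in controls 1, 2 and 3. Nrxn3 made up 22.0%, 33.3% and 27.8% of the RPKM of the 2 neurexin members with hairpins 1, 2 and 5, against 13.3%, 14.6% and 18.3% in controls 1, 2 and 3. Neither pair of groups overlapped, and the Nlgn3, Dlg2, Rims1 and Cadps shares were likewise higher with every hairpin. Syn2, the minor synapsin, stood lower, at 24.5%, 26.5% and 27.3% of synapsin RPKM with hairpins 1, 2 and 5, against 38.3%, 31.3% and 31.0% in controls 1, 2 and 3. Vamp1 (2.08% ± 0.280 with the hairpins and 1.86% ± 0.222 in controls), Unc13b, Sv2b and Cplx1 shares overlapped between groups. Shares in 1 library are not independent of each other, and no test was run on them. The 7 members with a fitted log2 fold change above 0.6 (Sez6l, Dlg2, Nrxn3, Sv2b, Nlgn3, Cplx1 and Erc2) stood at 0.496 to 18.6 CPM in controls, and 4.71% of all tested genes passed that size. Of these members, Dlg2 passed the low-count filter through its hairpin libraries alone.

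**Figure D4:**
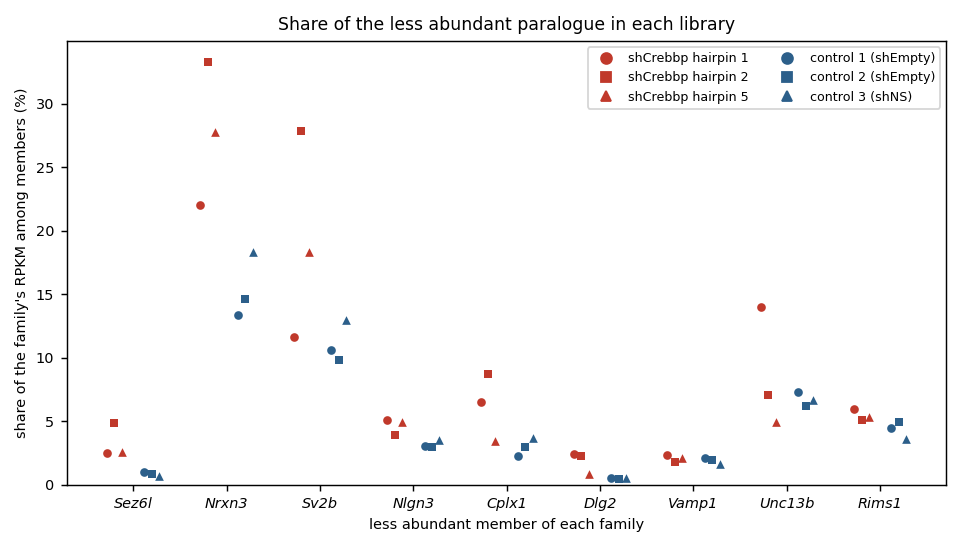
Share (%) of a less abundant member in the summed RPKM of its family members, in each shCrebbp library (red, left) and each control library (blue, right), for selected members. Those not drawn include Syn2, whose share was lower with every hairpin than in every control, and Cadps, whose share was higher. Nlgn1 and Syngr3, whose shares overlapped, and the synaptotagmins are not drawn either. Nrxn3 ranges from 22.0% to 33.3% in red and from 13.3% to 18.3% in blue, whereas red and blue overlap for Vamp1, Unc13b, Sv2b and Cplx1.

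By library, the 3 hairpins were not alike. The 3 sets of ratios share the same 3 controls, so their likeness to each other is not read as a result. Hairpin 1 lay above all controls in 19 of 41 tested members (38% of all tested genes) and below them in 16 (36.5%). Hairpin 2 lay above in 21 (38.1%) and below in 11 (36.8%), and hairpin 5 above in 19 (33.2%) and below in 9 (31.5%). The mean log2 ratio over the members was 0.09, 0.29 and 0.11 for hairpins 1, 2 and 5, against -0.03, 0.03 and -0.02 over all tested genes for the same hairpins. Each hairpin is 1 library, so these are descriptions with no test.

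Differences of at least 2-fold from the control mean (a log2 ratio of 1) were few in number, and are given with the share of tested members beside that of all tested genes. With hairpin 1 they were Sez6l, Nrxn3 and Dlg2 above (7.32% of tested members and 2.49% of all tested genes) and Syt4 below (2.44% and 3.96%). With hairpin 2 they were Sez6l, Dlg2, Nrxn3, Sv2b and Syt4, all above (12.2% and 3.47%), and with hairpin 5 Sez6l above (2.44% and 0.963%). Hairpin 1 was the lowest of the 6 libraries in 12 tested members, or 29.3% against 24.6% of all tested genes. It was the highest in 11, or 26.8% against 25.5% of all tested genes, so both shares were near those of all genes. Hairpin 2 was the highest library in 13, or 31.7% against 24.97% of all tested genes. It was also the library with the highest level of the neuronal gene Rbfox3 and, of the 3 hairpins, the highest level of Crebbp (log2 ratios to controls of -0.57, -0.23 and -0.48 for hairpins 1, 2 and 5). The part of these library differences in the results was not tested.

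**Figure D5:**
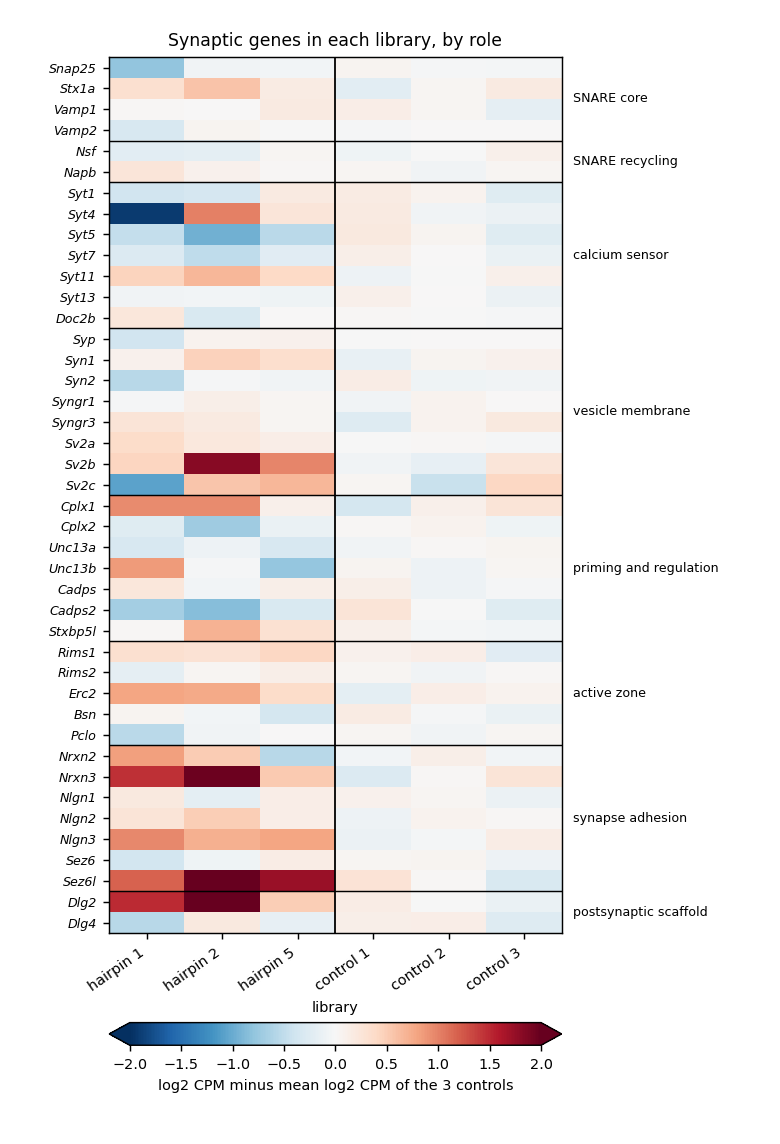
Log2 CPM of each of the 42 genes in each library minus the mean of the 3 controls (red above, blue below, colours ending at 2 in either direction), with genes grouped by role and the shCrebbp libraries left of the controls. Sez6l, Nrxn3, Dlg2 and Sv2b are red in all 3 hairpin columns, Syt5, Syt7, Cplx2 and Cadps2 blue in all 3, and Syt4 is blue with hairpin 1 and red with hairpin 2.

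The span of the 3 hairpin libraries was wider than that of the 3 controls in 35 of 41 tested members and in 78.5% of all tested genes, and narrower in 6 members. Among the members chosen here for their wide hairpin span, the hairpin log2 ratios of Syt4 spanned 2.92, against 0.30 in the controls, and those of Unc13b spanned 1.63, against 0.15. The median span over tested members was 0.42 for the hairpins and 0.23 for the controls, and over all tested genes 0.37 for the hairpins and 0.19 for the controls. The hairpins fell on both sides of the control mean in 16 of 41 tested members (39.0%), against 58.3% of all tested genes. Summed over all 42, the members took 4144, 4198 and 4582 CPM with hairpins 1, 2 and 5, against 4788, 4735 and 4466 CPM in controls 1, 2 and 3, so the groups overlapped.

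A wider list of 133 other synapse and exocytosis genes, none of them a member, gave 107 tested genes. Of these 1 fell and 0 rose, at backgrounds of 0.978% lower and 0.276% higher among all tested genes, while 16 were higher (7.99% of all tested genes) and 9 lower (8.46%) at an unadjusted p under 0.05. DESeq2 called 5 higher (2.22% of all tested genes) and 3 lower (3.23%), and limma-voom 0 in either direction. The gene that fell was Cbln4, which encodes a secreted cerebellin that binds neurexins. It stood at 3.45, 3.63 and 4.36 CPM with hairpins 1, 2 and 5, against 11.2, 10.2 and 6.64 CPM in controls 1, 2 and 3 (log2 fold change -1.30 ± 0.24, edgeR adjusted p = 0.04997). All hairpin libraries lay under all controls, but the adjusted p was 0.0515 to 0.284 with 1 library left out. No gene of this list rose under edgeR, and the positive ones of smallest p were Scamp1, a secretory carrier membrane protein gene (0.64 ± 0.13, adjusted p = 0.0669), and Svop, which encodes an SV2-related vesicle protein (0.89 ± 0.21, adjusted p = 0.0834). The median log2 fold change of the 107 was 0.04.

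Genes for the cargo of dense-core granules lay on both sides of the controls, and none was called by edgeR. Calca, which encodes calcitonin and CGRP, had 632, 831 and 1161 CPM with hairpins 1, 2 and 5, against 2009.5, 1807 and 1592 CPM in controls 1, 2 and 3. All hairpin libraries lay under all controls (log2 fold change -1.04 ± 0.20), and the adjusted p of 0.0558 in edgeR missed the threshold while those of 2.07e-05 in DESeq2 and 0.0456 in limma-voom passed it. Of the granin genes, Chga had 318, 425 and 391 CPM with hairpins 1, 2 and 5, against 461, 472 and 451 CPM in controls 1, 2 and 3 (log2 fold change -0.29 ± 0.11, edgeR adjusted p = 0.244). Chgb lay on the other side, with 254, 365 and 281 CPM with hairpins 1, 2 and 5, against 246, 254 and 245 CPM in controls 1, 2 and 3 (log2 fold change 0.27 ± 0.13, edgeR adjusted p = 0.341). Scg2, a further granin gene, and Resp18, which encodes a granule protein, had every hairpin library under every control, with log2 fold changes of -0.35 ± 0.13 and -0.62 ± 0.24 (edgeR adjusted p = 0.246 and 0.247). Isoforms are not resolved in these gene-level counts, including the long and short forms of the neurexins, and in the annotation 16.8% of Syp and 14.5% of Syt4 exon bases lie opposite another gene, whose reads cannot be told apart where counting does not use strand.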

How the data were processed

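Poly(A) RNA of 6 libraries was sequenced. The authors deposited whole-number read counts per gene, made with bcl2fastq 1.8.2, TopHat2 2.0.12 and HTSeq 0.6.1 on mm9, per the submitters' processing notes. The annotation and the strand setting were not given in the sources used here. HTSeq's summary rows (24.8% to 28.9% of a file) were left out. Counts were fitted in edgeR 4.0.16 (R 4.3.3; TMM, filterByExpr, robust quasi-likelihood, group as the 1 term), with Benjamini-Hochberg adjustment over all 13390 tested genes and a threshold of 0.05. The errors of log2 fold changes are standard errors and intervals are 95%. Log2 ratios used a prior count of 2. RPKM used the longest GENCODE transcript of GRCm38, matched by symbol. Alternatives were DESeq2 1.42.0, limma-voom (limma 3.58.1), other scalings and filters, and leaving out each library. The fit was tested on simulated data. Members and lists were chosen with earlier results of these data known. Library values were due for the 12 members of smallest p; those of other members were added after their values were seen. Libraries of the same group were not alike to within counting noise. The chi-square of their counts per degree of freedom was 4.25 to 11.6 for pairs of controls. It was 21.3 to 29.8 for pairs of shCrebbp libraries, each of a different hairpin. Depth sets the precision of genes with few reads.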

Additional observations from a re-analysis of the deposited data

How the results depend on the processing

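No paired analysis was possible because the hairpin numbers name hairpins and pair nothing with the control libraries. DESeq2 called 730 genes in all (edgeR 168), 5 members higher, 2 members lower, and 5 higher and 3 lower of the other synapse genes. Without a low-count filter 2 members and 1 other synapse gene were higher. The called Cbln4 was lost with limma-voom and with RLE scaling (0 lower in each). Leaving out 1 library gave 0 to 389 called genes, with 0 without control 1 or control 2, 0 to 4 members higher, and 0 to 5 higher and 0 to 2 lower of the other synapse genes. The median log2 fold change of members was 0.040 with limma-voom and 0.036 to 0.11 with 1 library left out, and that of the other synapse genes 0.014 with limma-voom and -0.023 to 0.036. The mean ratio of hairpin 2 was 0.33 with upper quartile scaling. Directions turned for Syt4 (-0.22) and Unc13b (-0.0019) with limma-voom and for Rims2 (0.0056) with upper quartile scaling. With 1 library left out the log2 fold changes that changed sign ran from -0.47 to 0.67 for Syt4, -0.37 to 0.47 for Unc13b, -0.077 to 0.073 for Rims2, -0.021 to 0.14 for Vamp1, -0.16 to 0.024 for Vamp2, -0.15 to 0.11 for Doc2b, -0.15 to 0.073 for Syp, -0.028 to 0.16 for Nlgn1, -0.24 to 0.025 for Sez6 and -0.36 to 0.012 for Dlg4; the cause was not tested. The other tested members kept their direction under every alternative run that tested them. Dlg2 had 6 to 36 reads per library, so its level carries a large counting error.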
